A study of Mus musculus with 12 samples.

Results

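The comparison set the livers of diabetic mice given MENS against every liver that had not received it. STZ (streptozotocin) kills the insulin-producing beta cells of the pancreas and is used to make mice diabetic. MENS is the labels' own name for a treatment that they do not define further. It was applied through a printed circuit board that a MENS device powered, in sessions of 1 h on 5 days of each of 6 weeks. The 2 STZ+MENS livers carried both STZ and MENS. The 4 livers without MENS were 2 from untreated control mice and 2 from STZ mice without the device, so MENS alone, without STZ, was not among the groups. All mice are labelled as 8 weeks old, with no word on when in the study this was, and the sources used here do not give strain or sex. Whether a sample was 1 mouse is not stated, so p-values refer to the spread among these samples, which may be technical.

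A gene was taken as outside the range when both STZ+MENS livers lay above the highest, or both below the lowest, of the 4 livers without MENS. Such a gene differed from control and from STZ in the same direction, which includes genes that lay only just past control and farther from STZ. The gap is the distance from the nearest STZ+MENS liver to the nearest liver without MENS. Levels are log2(intensity + 50) of the brightest probe of a gene, averaged over the 2 arrays of a liver, and a difference of 1 on this scale is a doubling for bright genes and understates the change of dim ones. Of 17742 genes measured, 5108 (28.8%) were outside the range, 2750 (15.5%) above it and 2358 (13.3%) below it. In the limma fit of the 2 STZ+MENS livers against the other 4, no gene passed an adjusted p of 0.05, and the lowest adjusted p was 0.093. At an unadjusted p under 0.05, 3309 genes (18.7%) differed in that fit, 1530 higher (8.62%) and 1779 lower (10%). The fit gave control and STZ 1 common mean, so a difference between these 2 groups widens its SE and raises its p. Differences from control alone or from STZ alone come from a fit with 1 mean per group. With no gene past adjustment in the pooled fit, all positions below are descriptions of these 6 livers.

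Heat shock proteins are molecular chaperones that help other proteins fold, and most of their genes are switched on by the transcription factor HSF1 when unfolded protein accumulates. The ubiquitin and proteasome system and autophagy remove proteins that cannot be refolded, and vesicle traffic carries the many proteins that hepatocytes secrete. The liver is rich in all of these systems because it makes most plasma proteins, and insulin deficiency is known to alter its lipid, glucose and protein metabolism.

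The arrays of 1 liver correlated at 0.986 to 0.996 over all probes, livers of 1 group at 0.976 to 0.988 and livers of different groups at 0.958 to 0.985. Hepatocyte markers were bright in every liver, with a mean level over 10 genes of 18.25 and 18.18 in control, 18.03 and 18.10 in STZ, and 17.78 and 18.00 in STZ+MENS. Both STZ+MENS livers had the lowest means, liver 1 the lower, and the part of this in the results below was not tested. Of these 10 markers, 3 (30.0%) lay below the range, beside 13.3% of all genes. Albumin (Alb) was below it by little, with STZ+MENS levels of 18.85 and 18.87 against a lowest level of 18.89 without MENS. The other two were Tat, tyrosine aminotransferase, and Cps1, the entry enzyme of the urea cycle. Muscle, neutrophil, T and NK cell markers had mean levels between 8.07 and 8.95 in every liver. No list of markers of another cell type had more than 3 members outside the range, and the 3 were the endothelial genes Stab1, Eng and Stab2, each above it by 0.10 or less. In bulk tissue, fewer cells of a type and less RNA per cell cannot be told apart.

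The genes with the largest gaps below the range included genes of mitochondria, membranes and the ubiquitin system. Sugct, a mitochondrial enzyme that transfers coenzyme A to glutarate, was at 12.51 and 12.62 in control, 12.31 and 12.35 in STZ, and 9.03 and 10.24 in STZ+MENS. Its livers without MENS lay close together and both STZ+MENS livers lay far below them, with a gap of 2.07 and a difference of -2.81 ± 0.31 (SE; limma, adjusted p = 0.093, n = 2 against 4), which is 7.02-fold. Slc25a25, a carrier of ATP-Mg and phosphate in the inner mitochondrial membrane, was at 15.29 and 13.49 in control, 14.20 and 14.49 in STZ, and 11.92 and 11.17 in STZ+MENS. The control livers of this gene were far apart, and the STZ+MENS levels still lay 1.57 below the lowest of them. Scamp5, a secretory carrier membrane protein, was at 10.90 and 11.82, 11.09 and 11.23, and 9.14 and 9.40 in the same order of groups. Both STZ+MENS livers were alike in this gene, and the difference was -1.98 ± 0.26.

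Several of the genes with the widest gaps below belong to the ubiquitin system, which tags proteins for degradation. Usp25, a deubiquitinase, was at 12.18 and 12.17 in control, 12.46 and 12.50 in STZ, and 10.44 and 11.002 in STZ+MENS. Ube2a, a ubiquitin-conjugating enzyme, was at 10.88 and 10.89, 11.48 and 11.19, and 9.31 and 9.73. In both, STZ livers were the highest and STZ+MENS livers the lowest, so the difference from STZ was the wider one. Cops2, a subunit of the COP9 signalosome that regulates cullin ligases, was at 11.09 and 11.004, 11.47 and 10.99, and 9.36 and 9.82. Kbtbd7, an adaptor of cullin 3 ligases, was at 12.12 and 12.27, 12.80 and 12.26, and 10.96 and 10.87. The differences of these 4 genes lay between -1.60 ± 0.20 for Usp25 and -1.45 ± 0.21 for Kbtbd7. The whole list of ubiquitin enzymes was near the background. Of 79 measured, 15 (19.0%) were below and 9 (11.4%) above the range, beside 13.3% and 15.5% of all genes. The median difference was -0.08.

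The remaining genes with the widest gaps below had diverse roles. Adam9, a membrane metalloprotease, was at 14.60 and 14.45 in control, 14.81 and 14.48 in STZ, and 13.28 and 13.31 in STZ+MENS, a difference of -1.29 ± 0.15. Atp7a, a copper-transporting ATPase, was at 10.78 and 10.60, 10.82 and 10.95, and 8.94 and 9.47. Ido2, an enzyme of tryptophan breakdown, was at 11.40 and 10.97, 11.30 and 10.86, and 9.05 and 9.74. Control and STZ livers overlapped in Adam9 and Ido2 and lay close together in Atp7a, and both STZ+MENS livers were below them in all 3. Commd8 was at 10.33 and 10.33, 10.88 and 10.59, and 8.58 and 9.24. C1galt1c1, the chaperone of the enzyme that builds core 1 O-glycans, was at 11.83 and 11.55, 12.42 and 11.69, and 10.18 and 10.47. STZ liver 1 was the highest of the 6 in both.

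Above the range, gaps were narrower. Wdr86 had the largest difference of the named genes, 3.17 ± 0.70 (9.02-fold; limma, adjusted p = 0.103). It was at 8.95 and 8.78 in control, 11.40 and 9.30 in STZ, and 12.65 and 12.91 in STZ+MENS. STZ liver 1 lay between the control and STZ+MENS livers, so the SE was wide. Dscc1, a factor of sister chromatid cohesion, was at 8.97 and 8.81, 9.07 and 10.36, and 12.99 and 11.23, with both STZ+MENS livers highest but far from each other. Pim1, a serine/threonine kinase that promotes survival, was at 12.52 and 13.02, 12.88 and 13.25, and 14.89 and 14.13, a difference of 1.59 ± 0.27. Bbc3, which encodes the pro-apoptotic protein PUMA, was at 11.37 and 11.15, 11.35 and 11.13, and 12.51 and 12.27. Its 4 livers without MENS spanned 0.24, and both STZ+MENS livers lay above them by at least 0.89.

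Metabolic and transport genes made up part of the same group. Echdc2, a mitochondrial protein of the enoyl-CoA hydratase family, was at 15.31 and 15.41 in control, 14.93 and 15.29 in STZ, and 16.36 and 16.33 in STZ+MENS, a difference of 1.11 ± 0.17. Slc1a7, a glutamate transporter, was at 11.59 and 11.89, 11.74 and 11.81, and 13.06 and 12.81. Phka2, the liver alpha subunit of phosphorylase kinase, which activates glycogen breakdown, was at 12.57 and 12.59, 12.32 and 12.69, and 13.55 and 13.60. In Slc1a7 and Phka2 the control and STZ livers overlapped, in Echdc2 the STZ livers were slightly lower, and both STZ+MENS livers were the highest in all 3. Cpsf4l, related to a subunit of the cleavage and polyadenylation factor, was at 12.49 and 13.89, 13.15 and 13.57, and 14.80 and 14.96. Crebrf, a regulator of CREB3, was at 12.65 and 12.82, 12.63 and 12.64, and 13.64 and 13.67. Nab2, a corepressor of Egr factors, was at 10.45 and 10.96, 10.69 and 10.66, and 12.25 and 11.76. Clasrp, an SR-like splicing protein, and Ggnbp1 had smaller differences, 0.90 ± 0.12 and 0.93 ± 0.12. Each of the 24 genes named by gap was outside the range on every one of its arrays. This followed from picking genes with wide gaps and close arrays, so it is not separate support. The 24 genes had folds from 1.87 to 9.02 and adjusted p from 0.093 to 0.103 (limma). With the mean of all probes of a gene in place of the brightest, the differences of 6 of them were over 1.5 times smaller: 0.42 for Cpsf4l, 0.50 for Phka2, 0.61 for Bbc3, 0.71 for Nab2, -0.66 for Atp7a and -1.06 for Commd8.

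**Figure D1:**
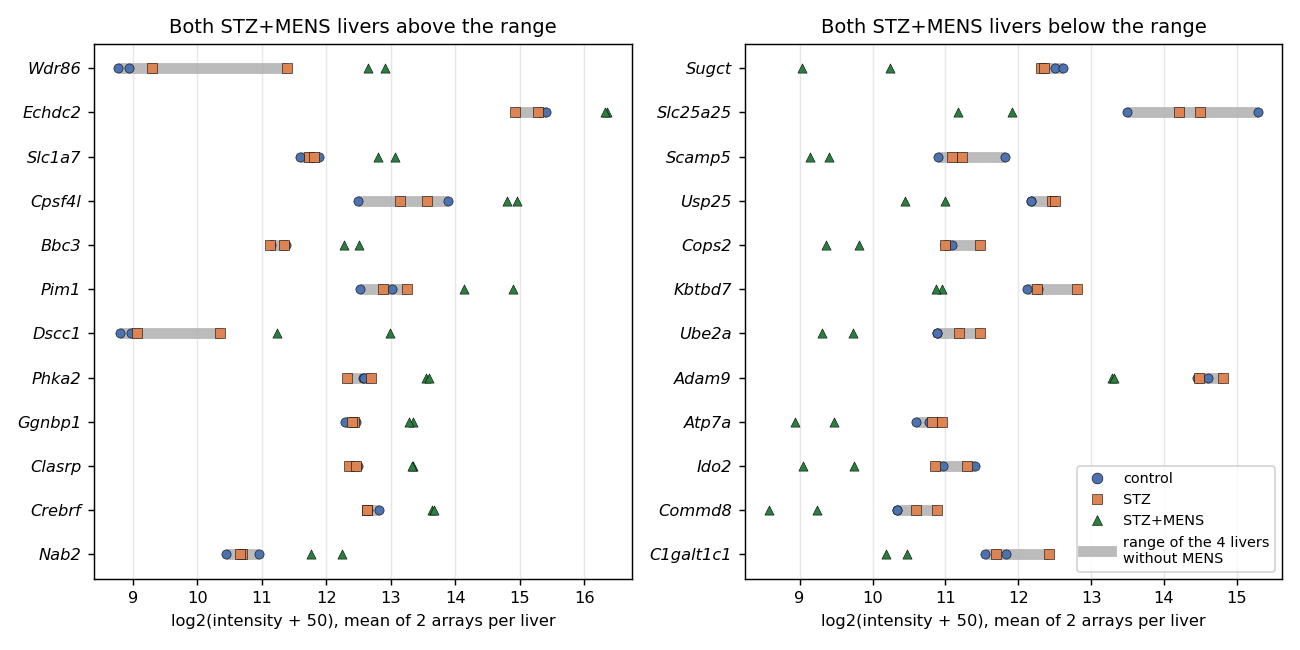
Level of the 24 genes with the widest gaps in each of the 6 livers, as log2(intensity + 50) averaged over 2 arrays; grey bars span the 4 livers without MENS. The triangles of the 2 STZ+MENS livers lie right of the bar for the 12 genes above the range and left of it for the 12 below, with Sugct the farthest, at a gap of 2.07.

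The 2 directions differed in the width of the gap. Of the 2750 genes above, 113 (0.637% of all genes) had a gap of at least 0.5 and 3 (0.0169%) a gap of at least 1.0. Of the 2358 below, 318 (1.79%) and 26 (0.147%) did. The median gap was 0.12 above and 0.19 below. More genes thus lay above the range, but those farthest from it were mostly below. The median difference was 0.41 (1.32-fold) above and -0.57 (1.49-fold) below. A difference of at least 2-fold was found in 75 genes above and 366 below. All 4 STZ+MENS arrays lay outside all 8 other arrays in 1046 genes above (5.9% of all genes) and 1088 below (6.13%).

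**Figure D2:**
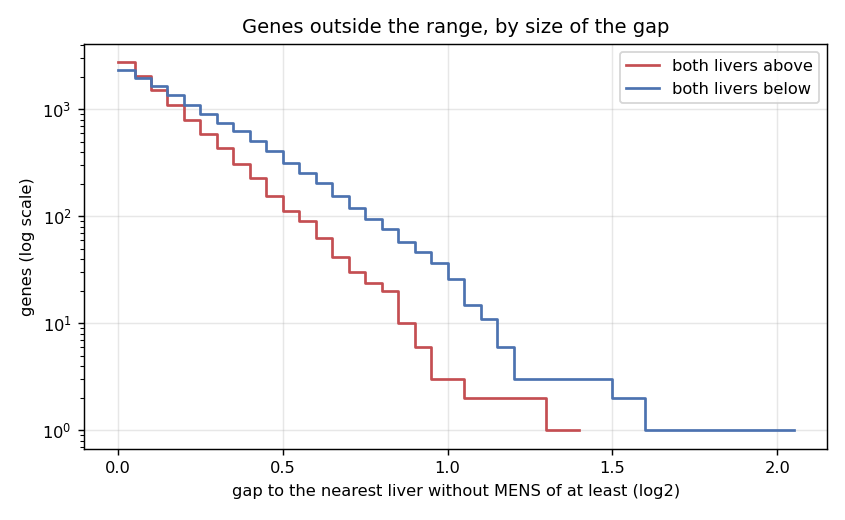
Number of genes (log scale) whose gap to the nearest liver without MENS was at least the value on the horizontal axis, in log2 units, for genes above and below the range. The lines cross at small gaps, and at 0.5 there were 113 genes above and 318 below.

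The 2 STZ+MENS livers were not equally far from the others. STZ+MENS liver 1 was the farther one in 1840 genes above (66.9%) and 1679 below (71.2%). Among the 318 genes below with a gap of at least 0.5, liver 1 was the farther in 265 (83.3%). Their median difference was -1.28 for liver 1 and -0.94 for liver 2. Bright genes were outside the range more often. With all genes in 5 equal groups by mean intensity, 14.4% of the dimmest group and 39.0% of the brightest were outside. Of the 9724 genes with a mean intensity of at least 1000, 37.2% were outside, 19.9% above and 17.4% below. Genes below had a median span in the genome of 24980 bases against 18290 for genes above and 19278 for all genes. The part of brightness and gene span in these positions was not tested.

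Control was the nearer group for 1601 of the genes above (58.2%) and 1528 of those below (64.8%). STZ+MENS against control and against STZ share the STZ+MENS livers, so their agreement is not a result, and for these genes it follows from the rule. Each is given here for single genes. Sugct differed by -2.93 ± 0.37 from control and -2.69 ± 0.37 from STZ. Slc25a25 differed by -2.84 ± 0.57 and -2.80 ± 0.57. Wdr86 was unequal, at 3.92 ± 0.62 and 2.43 ± 0.62. Metallothionein Mt1, which binds zinc and copper, had a stepwise order, at 14.29 and 14.54 in control, 16.33 and 16.53 in STZ, and 17.11 and 17.71 in STZ+MENS. It lay above control by 2.99 ± 0.23 and above STZ by 0.98 ± 0.23, so STZ+MENS was farther from control than STZ was. In the fit with 1 mean per group, 707 genes (3.98%) were higher and 1039 (5.86%) lower at an unadjusted p under 0.05 against both groups (limma). No gene passed an adjusted p of 0.05 against STZ. Against control 1 gene did (0.00564%), Top2b, a DNA topoisomerase, which lay inside the range and whose 2 arrays of a liver differed by up to 6.56.

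**Figure D3:**
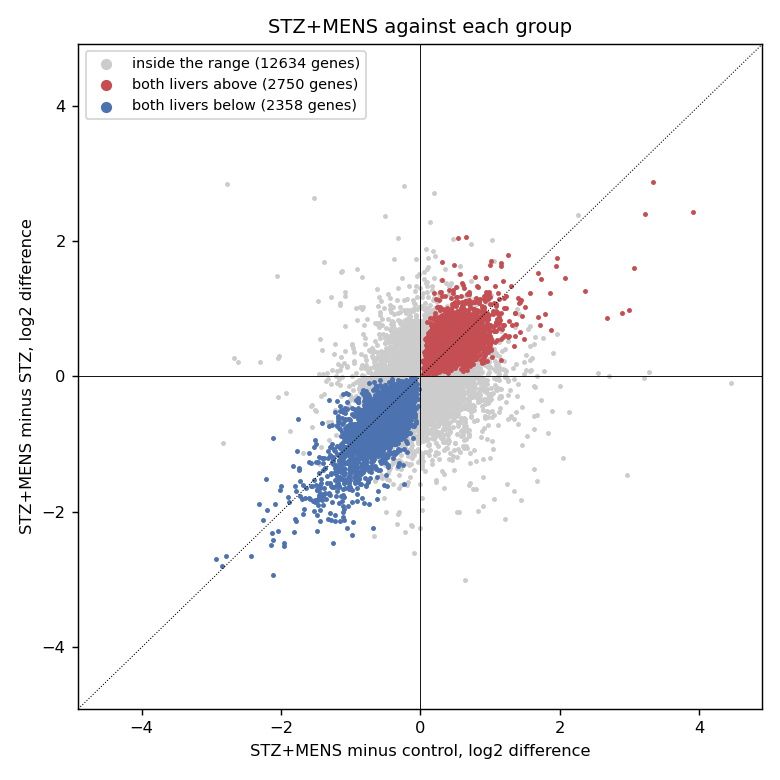
Difference of STZ+MENS from control (horizontal) and from STZ (vertical) for every gene, in log2 units, coloured by position relative to the 4 livers without MENS; the dotted line marks equal differences. The 2750 genes above and 2358 below fall by rule in the upper right and lower left, and both axes share the STZ+MENS livers.

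The genes inside the range were arranged in several ways. STZ+MENS lay between the groups, apart from both and in opposite directions, in 849 genes (4.79%). It was apart from STZ while overlapping control in 4321 (24.4%), apart from control while overlapping STZ in 2666, and overlapped both in 4798 (27.0%). At the edge of the rule, Ranbp3l was just above, its nearest STZ+MENS liver and the highest other liver both at 10.61, and Ttr just missed, with both at 18.98. Eif3b, a subunit of initiation factor 3, was just below, with a gap of 0.00021, and Tnfrsf11b just missed, with its nearest STZ+MENS liver and the lowest other liver both at 9.84.

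Heat shock and chaperone genes were the list with the largest share outside the range. Of 24 measured members, 15 (62.5%) lay below and 2 (8.33%) above, beside 13.3% and 15.5% of all genes and 17.4% and 19.9% of genes with a mean intensity of at least 1000, which all 24 members reached. The median difference of the list was -0.91, against 0.04 over all genes. In 8 of the members below, the gap was at least 0.5, and 12 lay below on all arrays. At an unadjusted p under 0.05, 16 were lower and 3 higher (limma), beside 10% and 8.62% of all genes, so the count higher was near the background. None passed after adjustment over all genes.

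HSP70 proteins and their relatives bind unfolded chains. Hspa4l, a nucleotide exchange factor of the HSP110 family, was at 12.59 and 11.91 in control, 12.61 and 11.86 in STZ, and 10.93 and 10.83 in STZ+MENS, a difference of -1.36 ± 0.26 (limma, adjusted p = 0.0941). Its group means without MENS were nearly the same, and both STZ+MENS livers lay 0.93 or more below the lowest. Of the same family, Hsph1 was at 14.66 and 13.49, 14.09 and 13.34, and 11.97 and 12.70, and Hspa4 differed by -1.18 ± 0.27. Hspa9, the HSP70 of mitochondria, was at 16.03 and 15.95, 16.35 and 15.94, and 13.84 and 15.29. STZ+MENS liver 1 was far lower than liver 2 in this gene. The stress-inducible Hspa1b was at 15.92 and 14.21, 15.16 and 13.97, and 13.15 and 13.33. Hspa1a, its near-identical copy, lay inside the range, at 13.96 and 12.57, 12.18 and 10.62, and 10.06 and 10.79, since STZ liver 2 lay between the STZ+MENS livers. Probes of this gene pair may read both transcripts, so their separate levels are uncertain. In the other direction, Hspa1l was at 10.94 and 11.09, 10.99 and 11.60, and 12.23 and 11.47, a difference of 0.69 ± 0.27, and Hspa2 differed by 0.24 ± 0.17. Both lay inside the range.

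J-domain proteins hand substrates to HSP70. Dnajb1 was at 15.76 and 14.33 in control, 14.79 and 13.92 in STZ, and 12.63 and 13.04 in STZ+MENS, a difference of -1.87 ± 0.47 (limma, adjusted p = 0.119). Dnajb4 was at 13.56 and 12.97, 13.51 and 12.76, and 11.85 and 11.87, a difference of -1.34 ± 0.25. In both, liver 1 of control and liver 1 of STZ were higher than liver 2, and the STZ+MENS livers lay below all 4. Dnaja1 and Dnaja2 also lay below, with differences of -1.08 ± 0.23 and -0.60 ± 0.25, and Dnajb6 lay inside with a difference of 0.00 ± 0.28.

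Chaperones and partners of other families were mostly below as well. Hspe1, the co-chaperonin of mitochondria, had the largest difference of the list, -1.95 ± 0.45. It was at 13.63 and 13.41 in control, 14.20 and 13.48 in STZ, and 10.89 and 12.56 in STZ+MENS, where liver 1 was again the lower. Ahsa1, which activates the HSP90 ATPase, was at 15.27 and 15.03, 15.60 and 14.73, and 13.01 and 14.02. Bag3, a partner of HSP70 in selective autophagy, was at 14.75 and 13.72, 13.95 and 13.37, and 12.52 and 12.91. Chordc1, Stip1 and Hsp90ab1 lay below by 0.11 or less. Small heat shock genes lay inside the range: Hspb1 was at 14.60 and 14.65, 15.19 and 15.51, and 15.71 and 15.45, and Hspb8 differed by -0.11 ± 0.22. The 2 members above were transcription factors. Hsf2 was at 12.39 and 12.35, 12.11 and 12.21, and 12.96 and 12.69, and Hsf1 differed by 0.37 ± 0.15.

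**Figure D4:**
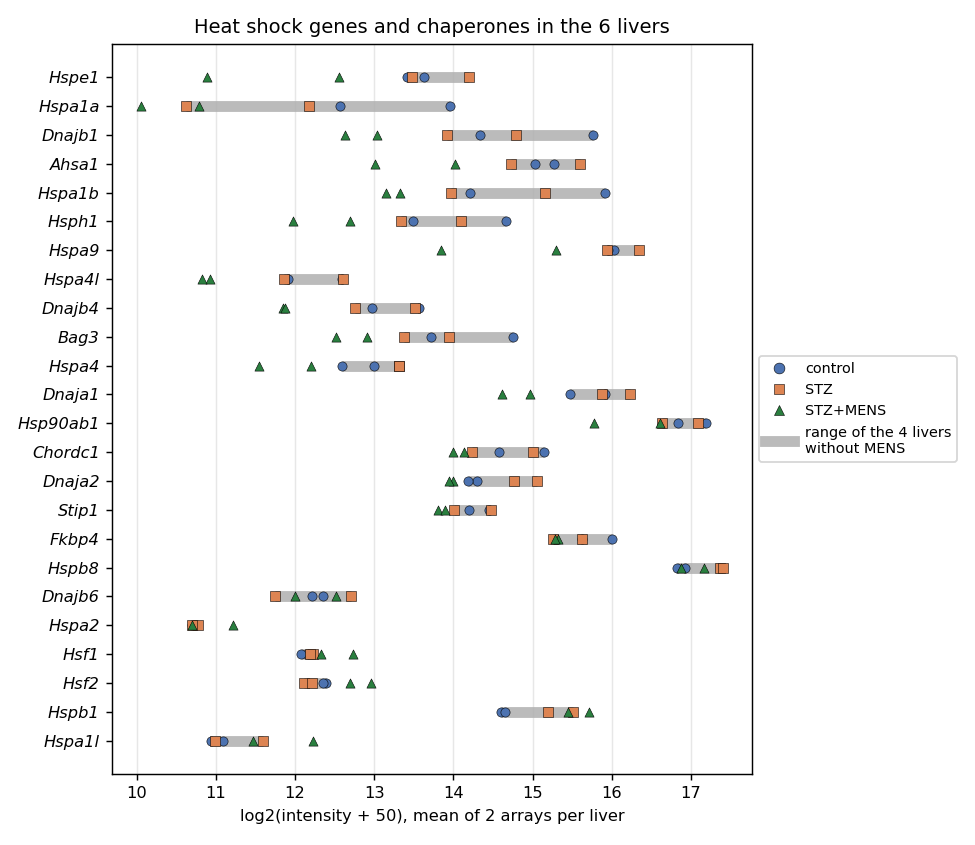
Level of the 24 measured heat shock and chaperone genes in each liver, as log2(intensity + 50) averaged over 2 arrays; grey bars span the 4 livers without MENS, and genes are ordered by their difference. Both STZ+MENS triangles lie left of the bar for 15 genes and right of it for Hsf1 and Hsf2.

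HSF1 binds repeats of a short unit, and the form GAANNTTC holds one unit facing another. It was searched on both strands, where it reads the same, in windows of 300 bases, 250 before and 50 after the transcription start, from RefSeq (assembly GRCm38.p6). A promoter was used for 13 of the 15 genes below, all but Hspa9 and Hsp90ab1, and 8 of the 9 others. Promoters of a single chromosome were left out for this list but kept in the counts over all genes. A gene counted when any of its windows held the motif. The motif stood in 6 of the 13 (46.2%), in 5 of the 8 (62.5%) and in 1070 of the 13980 measured genes with a promoter (7.65%). The form with a further unit, GAANNTTCNNGAA or TTCNNGAANNTTC, contains the shorter one. It stood in 3 of the 13 (23.1%), in 1 of the 8 (12.5%) and in 81 of the measured genes with a promoter (0.579%). Members below and the others of the list thus both held the shorter motif more often than all measured genes with a promoter. Over all genes with a promoter, the shorter motif stood in 7.79% of genes below and 6.71% of genes above the range. A match is only a match of letters. The 250 bases before the start are shown for the 3 genes below that hold the motif there, so that the motif can be seen in place. In the other 3 of the 6, it does not lie wholly before the start. Capitals mark the motif, and in Hspe1 they also mark its 2 overlapping longer forms. Hspe1 is at chr1:55087898-55088147 on the plus strand, Hspa1b at chr17:34959239-34959488 on the minus strand and Dnaja1 at chr4:40722218-40722467 on the plus strand, and the shorter motif starts 84, 104 and 124 bases before the start.
Hspe1: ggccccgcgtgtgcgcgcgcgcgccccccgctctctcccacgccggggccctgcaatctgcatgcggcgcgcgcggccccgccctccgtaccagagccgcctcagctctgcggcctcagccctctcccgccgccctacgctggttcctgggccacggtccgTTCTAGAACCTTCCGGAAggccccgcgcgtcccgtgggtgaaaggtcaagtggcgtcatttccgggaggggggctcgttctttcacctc
Hspa1b: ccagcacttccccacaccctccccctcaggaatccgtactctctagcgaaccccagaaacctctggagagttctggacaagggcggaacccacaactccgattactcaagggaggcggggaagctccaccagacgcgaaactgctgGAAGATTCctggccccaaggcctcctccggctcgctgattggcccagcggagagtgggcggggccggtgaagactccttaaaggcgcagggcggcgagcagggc
Dnaja1: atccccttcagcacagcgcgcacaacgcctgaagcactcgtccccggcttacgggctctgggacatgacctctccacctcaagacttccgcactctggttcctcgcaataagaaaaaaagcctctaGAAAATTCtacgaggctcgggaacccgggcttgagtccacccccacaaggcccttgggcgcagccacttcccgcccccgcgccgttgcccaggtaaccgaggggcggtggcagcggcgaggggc

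The endoplasmic reticulum is where secreted proteins fold. A list of its chaperones together with the sensors and target genes of its stress response had 9 of 27 members below the range (33.3%) and 0 above, with a median difference of -0.36, beside 13.3% below and 15.5% above over all genes. Dnajb9, a co-chaperone of this compartment, was at 13.31 and 13.11 in control, 13.10 and 12.45 in STZ, and 10.24 and 11.53 in STZ+MENS, a difference of -2.10 ± 0.38 (limma, adjusted p = 0.093). Hspa5, the main HSP70 there, was at 16.63 and 16.39, 16.59 and 16.30, and 14.79 and 15.72. Dnajc3 and Pdia6 lay below by 0.47 and 0.41. In Dnajb9 and Hspa5, STZ+MENS liver 1 was the lower of the pair.

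A list of SNARE, COPI and COPII genes of vesicle traffic was drawn by gene name. Of its 45 genes, 15 (33.3%) lay below and 7 (15.6%) above, beside 13.3% and 15.5% of all genes, so the share above was that of the background. Of genes with a mean intensity of at least 1000, which 86.7% of this list reached, 17.4% lay below. At an unadjusted p under 0.05, 15 members were lower (limma), beside 10% of all genes. Vamp7, a SNARE of late endosomes and lysosomes, was at 11.23 and 10.78, 11.62 and 11.06, and 9.31 and 9.79 in control, STZ and STZ+MENS. Bet1, a SNARE between the endoplasmic reticulum and the Golgi, was at 13.19 and 12.95, 13.31 and 12.82, and 11.70 and 11.89. Both were below the range by 0.93 or more. Sec13, a coat subunit of COPII, and Gosr1 lay below by 0.46 and 0.44. Copz1, a coat subunit of COPI, lay above by 0.29 and Stx16 by 0.22, Sec61a2 and Stx8 by less. Sec61a2, a subunit of the protein translocation channel, is in the list by name only.

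Protein removal and protein synthesis showed members on both sides. Of 48 genes in the proteasome list, 14 (29.2%) lay below and 10 (20.8%) above, beside 13.3% and 15.5% of all genes. The list was drawn by gene name, so it also held genes that are not subunits: Psmc3ip, Psme3ip1 and the assembly factors Psmg1 to Psmg4. Of genes with a mean intensity of at least 1000, which 89.6% of this list reached, 17.4% lay below and 19.9% above. The share above was thus near the background. Psmb7, a subunit of the catalytic core, was at 12.50 and 12.29, 13.35 and 11.90, and 8.80 and 11.14 in control, STZ and STZ+MENS, with liver 1 far below liver 2. Psma1, Psme4 and Psma6 lay below by 0.52, 0.47 and 0.26. The immunoproteasome subunits Psmb9 and Psmb8 lay above by 0.23 and 0.22, and Psme1, part of its activator, by 0.27. Of 26 autophagy and lysosome genes, 10 (38.5%) lay below and 3 above. Sqstm1, the cargo receptor p62, was at 14.30 and 14.22, 14.77 and 14.31, and 12.28 and 13.64. Atg4a, Ulk2 and Atg12 lay below by 0.35 to 0.45, and Atg7 lay above by 0.44.

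The enzymes that charge transfer RNAs had 9 of 18 members below and 2 (11.1%) above, beside 13.3% and 15.5% of all genes, with a median difference of -0.20. At an unadjusted p under 0.05, 7 were lower (limma), beside 10% of all genes. Tars, for threonine, was at 13.87 and 13.92, 14.68 and 13.65, and 13.06 and 13.03, alike in both STZ+MENS livers. Farsb, Iars and Rars lay below by 0.19 to 0.22, and in Rars STZ+MENS liver 1 was at 9.26 and liver 2 at 10.85. Gars and Sars lay above, by 0.13 and 0.10. Of 50 genes in a list of translation factors, which also held regulators such as Eif2ak1 and Eif4ebp1, 12 lay below and 6 above. Eif2s2, a subunit of initiation factor 2, was at 10.95 and 10.81, 10.88 and 10.63, and 9.77 and 10.06. Eif3i had a larger difference, -2.27 ± 0.63, with STZ+MENS livers at 8.26 and 10.28. Cytosolic ribosomal proteins had 10 of 40 below (25.0%) and 3 above (7.5%), none by 0.5, with Rpl22 and Rpl5 farthest at 0.48. Of 46 splicing factors, 13 lay below, Hnrnph2 by 0.66, and 6 above, Sf3a2 of the U2 particle by 0.68.

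**Figure D5:**
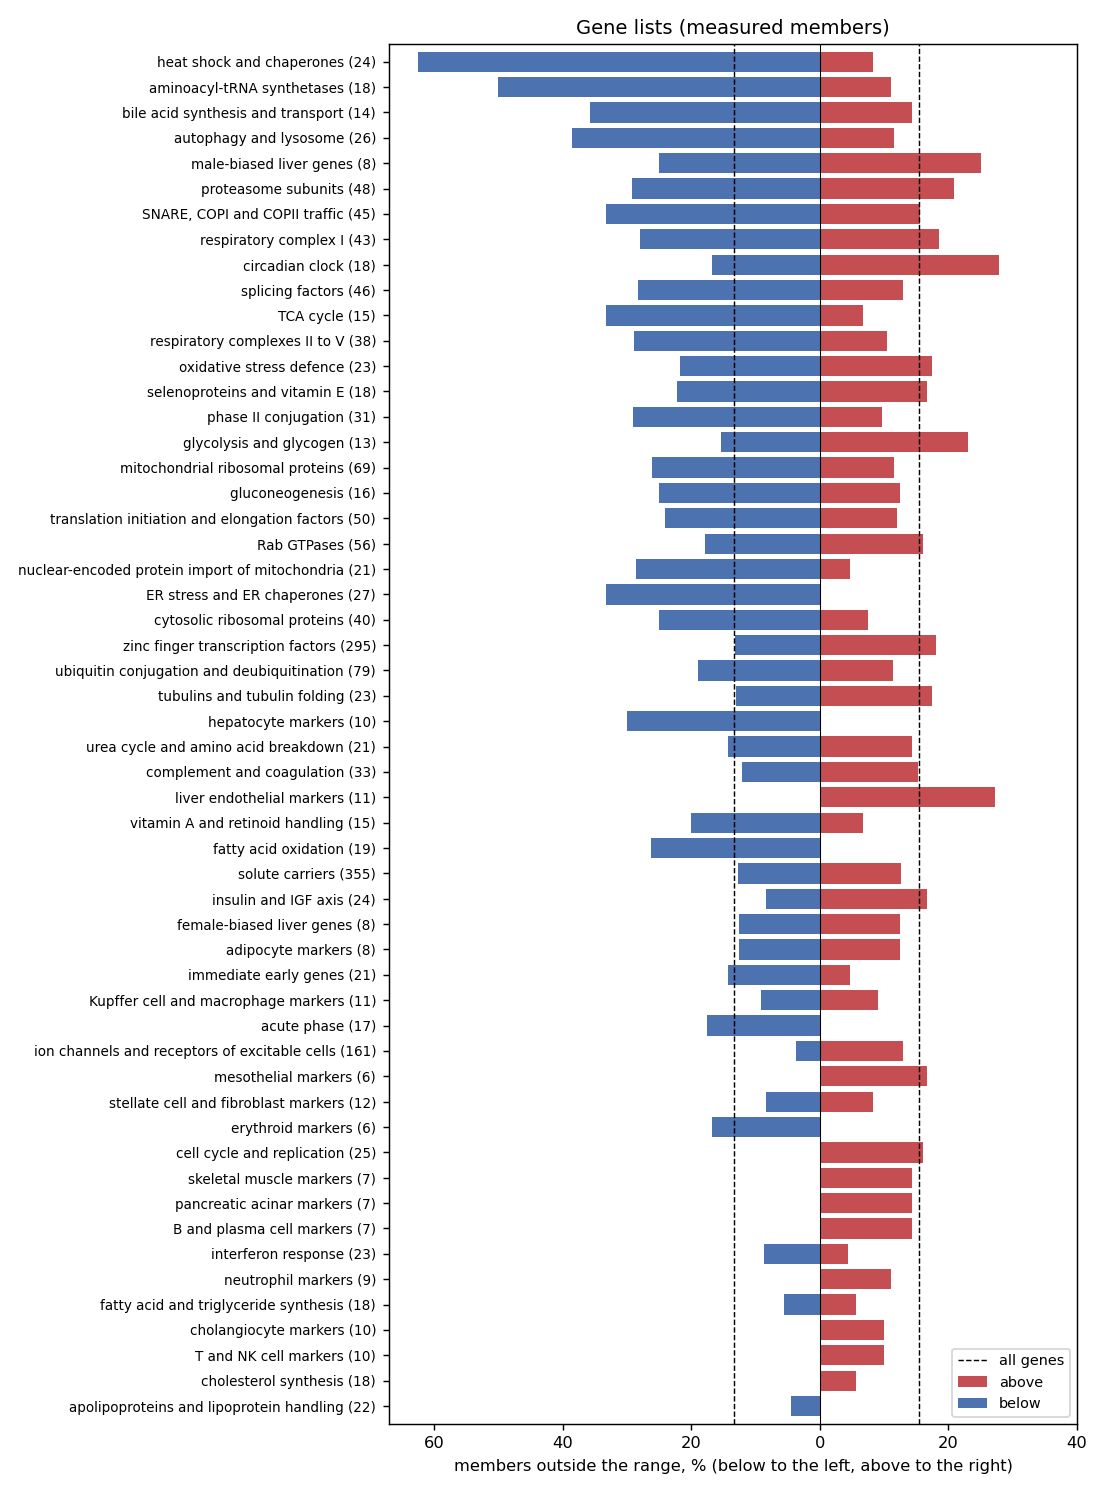
Share of the measured members of each gene list (number in brackets) that lay below the range, drawn to the left, or above it, drawn to the right, in percent; dashed lines mark the 13.3% and 15.5% of all genes. Heat shock genes reach 62.5% below, and cholesterol synthesis and apolipoproteins have the fewest members outside.

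Respiratory chain genes were split in the same way. The complex I list, which included assembly factors, had 12 of 43 members below (27.9%) and 8 above (18.6%), beside 13.3% and 15.5% of all genes. Of genes with a mean intensity of at least 1000, 17.4% lay below and 19.9% above. Ndufs3, a core subunit, was at 11.37 and 11.15, 11.97 and 10.81, and 9.03 and 10.16 in control, STZ and STZ+MENS. Ndufb5 differed by -1.86 ± 0.46. Ndufa2 and Ndufb7 were above by 0.29 and 0.28. Complexes II to V had 11 of 38 below (28.9%) and 4 above (10.5%). Sdha, the catalytic subunit of succinate dehydrogenase, was at 16.41 and 16.18, 16.21 and 16.03, and 14.50 and 15.33. Cox7a2l, a factor of supercomplex assembly, differed by -1.89 ± 0.39. The TCA cycle had 5 of 15 below (33.3%), and Ogdh, the oxoglutarate dehydrogenase, was the 1 above. Mitochondrial ribosomal proteins had 18 of 69 below (26.1%) and 8 above (11.6%), and genes of protein import into mitochondria 6 of 21 below (28.6%) and 1 above.

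Of 19 fatty acid oxidation genes, 5 (26.3%) lay below and 0 above, beside 13.3% and 15.5% of all genes. Of genes with a mean intensity of at least 1000, 17.4% lay below and 19.9% above. Etfdh, which passes electrons from acyl-CoA dehydrogenases to ubiquinone, was at 14.13 and 13.86 in control, 15.04 and 14.05 in STZ, and 11.24 and 12.84 in STZ+MENS, a difference of -2.23 ± 0.49 (limma, adjusted p = 0.102). Ehhadh, the bifunctional enzyme of peroxisomes, was at 14.65 and 14.30, 15.59 and 15.34, and 13.07 and 13.58. In Ehhadh, STZ was higher than control and STZ+MENS lower than both. Etfa and Acadl lay below by 0.12 and 0.08. Of 16 gluconeogenesis genes, 4 (25.0%) lay below and 2 above (12.5%). G6pc, glucose-6-phosphatase, was at 14.18 and 13.22, 15.68 and 14.86, and 12.96 and 13.08, below control by little and below STZ by far. Tat was at 18.22 and 17.88, 18.19 and 17.68, and 16.61 and 16.91. Pcx, pyruvate carboxylase, lay above by 0.47 and Slc37a4, the glucose-6-phosphate transporter, by 0.25. Glycolysis and glycogen genes had 3 of 13 above (23.1%), with Phka2 the farthest, and 2 below (15.4%), Gbe1, the glycogen branching enzyme, by 0.45.

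Bile acid genes had 5 of 14 members below (35.7%) and 2 above (14.3%), beside 13.3% and 15.5% of all genes. Slc10a1 (NTCP), which takes bile acids up from blood, was at 12.40 and 12.94 in control, 12.23 and 12.09 in STZ, and 14.21 and 13.43 in STZ+MENS, a difference of 1.41 ± 0.30 (limma, adjusted p = 0.102). Abcb11 (BSEP), which exports them into bile, was at 14.47 and 14.70, 15.27 and 14.61, and 13.21 and 13.65, a difference of -1.33 ± 0.25. Slc10a1 was thus higher and Abcb11 lower in both STZ+MENS livers, although the arrays of 1 liver differed by 1.05 for Abcb11. The uptake transporters Slco1a1 and Slco1b2, also in the list, were not above the range. Nr1h4 (FXR), the bile acid receptor, lay above by 0.09. Akr1d1, Slc27a5 and Baat, of synthesis and conjugation, lay below by 0.34, 0.22 and 0.21. In phase II conjugation, 9 of 31 lay below (29.0%) and 3 above (9.68%). Ugt2b34, a glucuronosyltransferase, was at 15.19 and 15.04, 15.45 and 14.996, and 12.87 and 13.96. Among vitamin A genes, Rdh10, which oxidises retinol, was at 12.16 and 12.22, 12.66 and 12.40, and 10.95 and 11.12. Bco1, which cleaves beta-carotene, lay above by 0.55, and in all 3 of 15 such genes lay below and 1 above.

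Redox genes had 5 of 23 members below (21.7%) and 4 above (17.4%), beside 13.3% and 15.5% of all genes. Of genes with a mean intensity of at least 1000, 17.4% lay below and 19.9% above. Prdx3, the peroxiredoxin of mitochondria, was at 10.67 and 10.36, 10.78 and 10.31, and 8.19 and 9.37, a difference of -1.75 ± 0.32. Txnrd1, Prdx1 and Gclm lay below by 0.28 to 0.39. Beside Mt1, the members above (Prdx2, Txnrd2 and Txn1) exceeded the range by 0.14 or less. Of 18 selenoprotein and vitamin E genes, 4 lay below, among them Ttpa, the tocopherol transfer protein, by 0.63, and 3 above, among them Gpx3, plasma glutathione peroxidase, by 0.50. Clock genes had 5 of 18 above (27.8%) and 3 below (16.7%). Per1 was at 12.74 and 13.05, 13.38 and 13.54, and 14.16 and 13.84, and Ciart, Bhlhe41 and Tef lay above by 0.15 or less. Rora, Nr1d1 and Clock lay below by 0.35, 0.29 and 0.14.

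Some lists had few members outside, beside 28.8% of all genes. Of 18 cholesterol synthesis genes only Fdft1, squalene synthase, lay outside (5.56%), at 16.26 and 16.50 in control, 15.44 and 15.27 in STZ, and 16.63 and 16.53 in STZ+MENS. The median difference of this list was -0.35 from control and 0.61 from STZ, 2 differences that share the STZ+MENS livers. Mvd, mevalonate diphosphate decarboxylase, had the largest difference from STZ in the list, 2.82 ± 0.33. It was at 14.15 and 13.64, 11.03 and 10.67, and 14.11 and 13.22, so its STZ+MENS livers were near control and far above STZ. Mvk was also near control, at a difference of 0.09 ± 0.15. Other members lay well under control, by -1.56 ± 0.51 for Tm7sf2, -1.27 ± 0.70 for Fdps and -1.15 ± 0.34 for Sqle. Fdps differed from STZ by only 0.09 ± 0.70. Fatty acid and triglyceride synthesis had 1 of 18 above, Mlxipl, and 1 below, Agpat2. Of 22 apolipoprotein and lipoprotein genes, 1 lay outside (4.55%), Apob, the structural protein of VLDL and LDL, named after its values were seen. Apob was at 17.31 and 17.26, 17.43 and 16.85, and 14.21 and 15.84, a difference of -2.19 ± 0.42 (4.57-fold; limma, adjusted p = 0.0939). The share of complement and coagulation genes outside was near that of all genes, with 4 of 33 below and 5 above (27.3%). The coagulation genes Serpind1 and Cpb2 had differences of -2.16 ± 0.58 and -2.72 ± 0.70, with STZ+MENS liver 1 far lower than liver 2, at 11.90 against 14.16 and 9.74 against 12.30.

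Zinc finger and solute carrier genes gave shares near the background. Of 295 zinc finger genes, 53 (18.0%) lay above and 39 (13.2%) below, beside 15.5% and 13.3% of all genes. Zfp653 was the farthest above, at 12.48 and 12.39 against a highest level of 11.58 without MENS. Of 355 solute carriers, 45 lay above and 45 below (12.7% each), and 14 below and 1 above had a gap of at least 0.5. Gaps of that width were also mostly below over all genes, at 1.79% below and 0.637% above. Slc35a3, a nucleotide sugar transporter, and Slc12a2, a sodium-potassium-chloride cotransporter, lay below by 1.03 and 0.95, after Slc25a25. Of 161 ion channels and receptors of excitable cells, 21 lay above and 6 (3.73%) below, and most of the family had a mean intensity under 1000. Cell cycle genes had 4 of 25 above and 0 below, led by Cdkn1b, an inhibitor of cyclin-dependent kinases, at 11.60 and 11.28 against a highest level of 10.90. Immediate early genes had 3 of 21 below (14.3%), near the background, and 1 above (4.76%), with Fos at 9.88 and 8.64, 9.96 and 9.99, and 7.95 and 8.25. Interferon response genes had 2 of 23 below (8.7%), Ifih1 and Ddx58, both sensors of viral RNA, and 1 above (4.35%).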

How the data were processed

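Total RNA from mouse liver was extracted with TRIzol, amplified, labelled with Cy5 and hybridised to 12 Phalanx Mouse OneArray v2 arrays, per the labels' protocols, 2 arrays for each of 6 livers. The deposited values are linear probe intensities that the authors had already background-subtracted and normalized to a common distribution, as the values show: array medians lay between 768.89 and 770.33, and 44 to 52 of 26423 probes per array were below 0. The sources used here do not give the methods for this; per the submitters' processing notes, limma 3.30.7 was among the tools. No depth applies to arrays, and their number limits the precision.

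Values below 0 were set to 0, 50 was added and log2 was taken. Of the probes, 20377 had 1 gene symbol in the platform annotation, 18213 of them current, 2126 updated through a RefSeq table (GRCm38.p6) and 38 kept, and 6046 were unnamed. The brightest probe stood for each of 17742 genes, and the 2 arrays of a liver were averaged. STZ+MENS (2 livers) was tested against control and STZ pooled (4 livers) with limma 3.58.1 (lmFit and eBayes, two-sided, Benjamini-Hochberg over all genes) in R 4.3.3. The fit left 4 residual and 3.1 prior degrees of freedom. A run on simulated livers, with no difference between control and STZ, required only that planted differences were recovered. It was no check of the p-values. An exact permutation test of 2 against 4 has a smallest p of 0.133, so none was run. Tables and plots used Python 3.11.15.

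The comparison, the rule and the gene lists were chosen with earlier results of these data known. Some lists were drawn by gene name and may hold genes outside the complex or family that they are named for. Per direction, the 12 genes with the largest gap were named, leaving out predicted genes, genes whose 2 arrays of a liver differed by over 1.0 and genes with an intensity under 100 on the brighter side. In lists of at least 5 measured genes with at least 2 outside in 1 direction, up to 4 genes per direction with the largest gap were named. Names outside this rule (Apob, Mvd, the members of the lists described singly) were chosen after their values were seen. The cytochrome P450 and ketogenesis lists had under 5 measured members and are not analysed here. Alternatives covered the offset, the choice of probe, normalization, dim or discordant genes, single arrays, the model and each liver left out.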

Additional observations from a re-analysis of the deposited data

How the results depend on the processing

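No gene passed an adjusted p of 0.05 with offsets of 16 or 200, the mean of all probes, repeated quantile normalization, median centring, an intensity of at least 100, without genes of discordant arrays, with trend and robust eBayes, with 1 mean per group (4083 genes at an unadjusted p under 0.05), with the first arrays alone or with the larger p of the differences from control and from STZ (limma; 1746 at an unadjusted p under 0.05). With 12 arrays in duplicateCorrelation, 1200 genes passed, but this counts arrays of 1 liver as partly independent (correlation 0.61), and with the second arrays alone 127 passed. Leaving out 1 liver gave 0 to 4 genes, 4 without STZ+MENS liver 2 and 2 without STZ liver 1. The unadjusted count ranged from 1641, without STZ+MENS liver 1, to 3377. A lone STZ+MENS liver was assumed to vary like the others. Genes above the range numbered 3071 to 5379 with 1 liver left out and genes below 2602 to 4356, the most without STZ+MENS liver 2. A larger required gap or all arrays outside left 113, 3 and 1046 genes above and 318, 26 and 1088 below. Sample numbers are shared between groups, and over all genes the deviations of same-numbered livers from their group means correlated at -0.07 to 0. The heat shock list had means of 14.25 and 13.8 in control, 14.15 and 13.77 in STZ, and 13.08 and 13.35 in STZ+MENS. Liver 1 was thus the higher in control and STZ and the lower in STZ+MENS. Whether a shared number stands for shared handling was not tested. With a replicate block, 0 genes passed and 2844 had an unadjusted p under 0.05 (limma). Heat shock members below ranged from 13 to 17, transfer RNA synthetases from 6 to 12, traffic genes from 11 to 22 and autophagy genes from 7 to 14. The highest of these counts came with a liver left out, which can only add genes outside the range, in these lists as over all genes. Cholesterol genes outside numbered 0 with the first arrays, 2 with the second and 1 to 7 with 1 liver left out. The 7 came without STZ+MENS liver 2, where 5379 of all genes lay above and 4356 below. Of 480 alternative values for the 24 named genes, 40 newly passed, nearly all with duplicateCorrelation or with the second arrays alone. None changed sign, but these genes were named for wide gaps, which fixed the sign in advance in most settings. With the mean of all probes, 6 differences shrank by over 1.5 times, that of Cpsf4l most, to 0.42, and that of Atp7a to -0.66 (adjusted p = 0.308, limma).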

Other observations

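The 6046 probes without a gene name were not used above. By the same rule, 782 of them (12.9%) lay above and 459 (7.59%) below the range of the 4 livers without MENS, 32 and 30 of them by at least 0.5. Lists of sex-biased liver genes were small: of 8 male-biased genes 2 lay above, with Elovl3, a fatty acid elongase, at 10.63 and 10.91 in control, 10.13 and 10.12 in STZ, and 12.20 and 11.35 in STZ+MENS, and 2 below. Of 8 female-biased genes, 1 lay above (Hao2) and 1 below (Abcd2).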
